A study of Homo sapiens with 43 samples.

Results

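CD24, ICAM1, LAMA5, P2RX1, TNXB, MCF2L, DOCK6 and ZNF467 are 8 genes of 58347 in the deposited RNA table, chosen because their counts were higher after doxycycline in the WT or Q157R line. The choice used the induced and uninduced RNA-seq libraries themselves, so the RNA values of these genes are given as a description, with no test. The cells were HEL, an established human erythroleukemia line, and every group carried a stably transduced U2AF1 transgene: wild-type (WT), S34F or Q157R. For RNA-seq, rRNA was depleted; without doxycycline there were 2 libraries of the WT line and 1 each of S34F and Q157R, and with it (1 µg/ml, 48 hours) 2 of each line. A line without the transgene given doxycycline is not among the groups, so the drug and the induced protein cannot be told apart. Nothing in the labels says that replicates came from separate cultures, so the p-values cover only the spread between these samples, part of which may be technical.

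U2AF1 is the small subunit of the factor that recognises the AG at the 3′ splice site, and S34F and Q157R are recurrent changes in its zinc fingers in myeloid neoplasms. The 8 genes do not form 1 pathway. CD24 encodes a small, heavily glycosylated surface protein anchored in the membrane by a lipid. ICAM1 encodes an adhesion receptor for the leukocyte integrins, and its transcription is a classical target of NF-kB. LAMA5 encodes a laminin alpha chain of basement membranes, and TNXB encodes tenascin-X, an extracellular matrix glycoprotein. P2RX1 encodes an ATP-gated cation channel known from platelets and megakaryocytes. MCF2L and DOCK6 encode guanine nucleotide exchange factors, and ZNF467 encodes a zinc finger protein.

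Promoter sequence was available from RefSeq (GRCh38.p14) for 6 of the 8 genes; P2RX1 and DOCK6 had no entry. A window covers the 250 bases before an annotated start, read in the direction of the gene. The 3 windows below are shown because they belong to the gene with the largest fold (CD24), to an NF-kB target (ICAM1) and to the matrix gene with the most counts in the CLIP libraries (LAMA5). Capitals mark matches to 6 short motifs searched on both strands: GGAAATTCC (NF-kB type), TTCNNNGAA (STAT type), the AP-1 type (TGA, any base, TCA), AGATAA for the GATA type, GGGCGG for the GC box and TATAAA for the TATA box.
CD24, chr6:106975628-106975877, minus strand: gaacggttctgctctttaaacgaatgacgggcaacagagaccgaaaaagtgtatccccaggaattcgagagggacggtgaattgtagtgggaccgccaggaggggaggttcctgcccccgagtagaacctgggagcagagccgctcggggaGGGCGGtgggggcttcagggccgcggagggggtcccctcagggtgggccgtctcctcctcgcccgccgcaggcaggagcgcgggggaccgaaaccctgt
ICAM1, chr19:10270870-10271119, plus strand: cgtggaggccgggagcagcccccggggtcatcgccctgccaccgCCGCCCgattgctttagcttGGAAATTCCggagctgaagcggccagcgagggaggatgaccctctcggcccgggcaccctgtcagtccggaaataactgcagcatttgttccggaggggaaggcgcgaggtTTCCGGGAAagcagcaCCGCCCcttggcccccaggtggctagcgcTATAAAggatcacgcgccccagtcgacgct
LAMA5, chr20:62367313-62367562, minus strand: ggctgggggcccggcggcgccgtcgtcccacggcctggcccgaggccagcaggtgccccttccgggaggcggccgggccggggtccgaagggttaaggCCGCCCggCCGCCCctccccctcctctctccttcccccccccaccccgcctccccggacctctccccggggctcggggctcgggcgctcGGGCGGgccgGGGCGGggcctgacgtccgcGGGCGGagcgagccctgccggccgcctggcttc

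In the ICAM1 window the NF-kB type match began 186 bases, the STAT type match 75 bases and the TATA box 30 bases before the start, and GC boxes began 206 and 59 bases before it. This window overlaps an exon of another annotated ICAM1 transcript. The CD24 window held 1 GC box, 99 bases before the start, and the LAMA5 window held 5, from 152 to 33 bases before it. Of 35116 promoter windows of the same length, 0.413% held the NF-kB type motif, 6.57% the STAT type, 6.57% the AP-1 type, 9.17% the GATA type, 42.6% a GC box and 10.7% a TATA box. The 6 genes had 15 windows, with more than 1 for CD24, TNXB and MCF2L. Of these windows, 1 held the NF-kB type motif and 1 the TATA box (both ICAM1), and 2 the STAT type (ICAM1 and MCF2L). The GATA type matched in 1 window (MCF2L), and a GC box in 9 (CD24, ICAM1, LAMA5, MCF2L and ZNF467). The AP-1 type matched in none of these windows. A match is a string of letters and was not tested as a binding site. The NF-kB type was searched as 1 fixed string, so its share and its absence from a window hold for that string only.

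The RNA-seq libraries held 22392303 to 40370092 gene counts. U2AF1 stood at 13.4 and 12.6 CPM (counts scaled by library size with TMM) in uninduced WT and 19.1 and 11.01 CPM in induced WT libraries. It stood at 21.2 CPM before and 18.0 and 19.4 CPM after induction in the S34F line. In the Q157R line it stood at 22.1 CPM before and 21.5 and 15.2 CPM after it. These counts did not show the transgene, and whether it was induced cannot be read from them. Reads that map to several places, 11.93% to 17.58% of each library, are not among the gene counts. The 22 megakaryocyte and platelet markers summed to 6540 to 8657 CPM in uninduced and 4944 to 8645 CPM in induced libraries, with GP1BB at 0, and the 28 erythroid markers to 4064 to 5285 and 3128 to 4857 CPM. The 14 monocyte and granulocyte markers summed to 236 to 320 CPM uninduced and 222 to 343 CPM induced, and the 12 stromal, epithelial and endothelial markers to 413 to 537 and 427 to 653 CPM, with KRT19 at 0. In the latter list PECAM1 alone stood at group means of 303 to 448 CPM, and 7 of the 12 genes were under 1 CPM in every library. The 12 lymphoid markers summed to 21.9 to 30.7 CPM in uninduced and 29.2 to 55.3 CPM in induced libraries, with the B cell marker MS4A1 at 0. The part of these marker levels in the values below was not tested, and fewer cells of a type cannot be told apart from less RNA per cell. Reads outside annotated features made up 18.97% to 20.61% in uninduced libraries, 22.67% and 22.71% in induced WT, 23.23% and 26.98% in induced Q157R, and 33.66% and 33.46% in induced S34F libraries.

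CD24 had the widest range of the 8 genes. In the WT line it stood at 2.79 and 9.26 CPM without doxycycline and at 21.3 and 49.0 CPM with it (replicates 1 and 2). In the S34F line it stood at 3.06 CPM before induction and at 8.32 and 29.8 CPM after it. In the Q157R line it stood at 1.89 CPM before induction and at 46.6 and 87.9 CPM after it. The lowest CD24 level of all 10 libraries was therefore in the uninduced and the highest in the induced cells of the same line, Q157R. Between libraries of the same number, induced CD24 was 7.65-fold (replicate 1) and 5.29-fold (replicate 2) the uninduced level in WT, 2.72-fold in S34F and 24.6-fold in Q157R cells. A second fit took the replicate number as a block, with 1 replicate effect per gene shared by all groups. S34F and Q157R had no uninduced replicate 2. Their blocked values therefore rest in part on a replicate effect estimated from the other groups too. In this fit the log2 fold change was 2.63 ± 0.23 (SE) in WT, 1.69 ± 0.31 in S34F and 4.397 ± 0.35 in Q157R. The log2 ratios of replicate 1 libraries were 1.44 in S34F and 4.62 in Q157R. Among 13189 genes with a mean log2 CPM of at least 1, CD24 ranked 2 from the top in WT, 217 in S34F and 1 in Q157R. The gene (ENSG00000272398.5) lies at chr6:106969831-106975627 on the minus strand. Its copies CD24P1 and CD24P2, with which reads could be shared, held at most 1 and 9 counts in a library. Reads that map to several places are not counted, so these counts cannot show how many CD24 reads were shared.

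**Figure D1:**
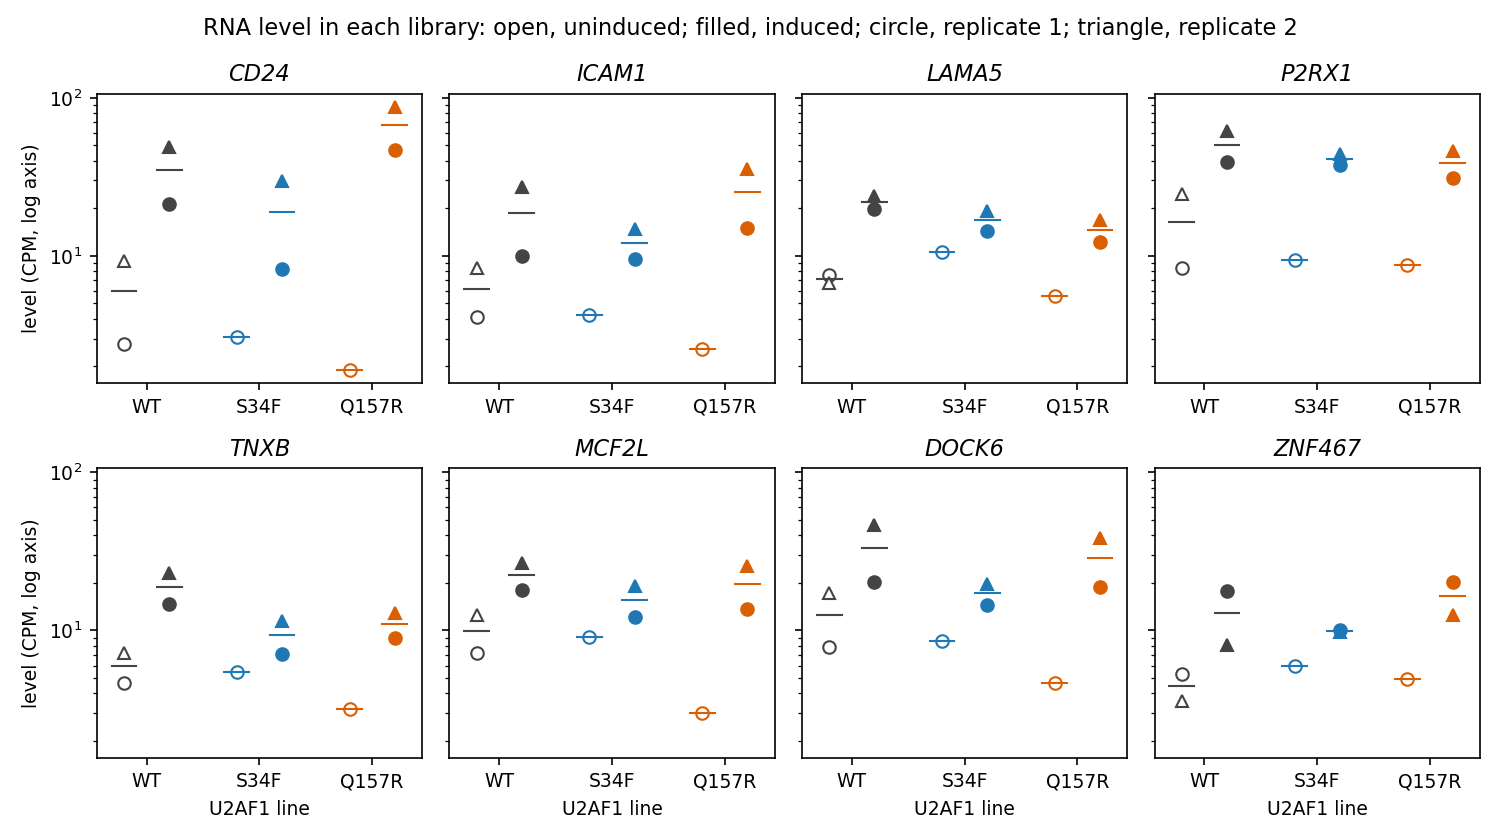
RNA level (CPM, log axis) of each gene in each of the 10 RNA-seq libraries, by U2AF1 line; open symbols are uninduced, filled symbols induced, circles replicate 1, triangles replicate 2, and bars the group mean. Filled symbols lie above open ones in every line and panel, and CD24 in the Q157R line spans 1.89 to 87.9 CPM.

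ICAM1 is the gene whose promoter window held the NF-kB type match. Its WT libraries held 4.07 and 8.36 CPM uninduced and 9.94 and 27.2 CPM induced. The highest uninduced and lowest induced WT libraries were only 1.19-fold apart, and they carried different replicate numbers. The S34F line held 4.24 CPM before induction and 9.50 and 14.8 CPM after it. The Q157R line held 2.59 CPM before it and 15.02 and 35.6 CPM after it. With the block, the log2 fold change of ICAM1 was 1.51 ± 0.22 in WT, 0.94 ± 0.29 in S34F and 2.61 ± 0.32 in Q157R (SE). ICAM1 (ENSG00000090339.8, chr19:10270835-10286615) is overlapped on the opposite strand by AC011511.5, with 30 to 125 counts per library, and whether counting used strand is not given in the sources used here.

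P2RX1 (ENSG00000108405.3, chr17:3896592-3916500) encodes the ATP-gated channel. WT cells held 8.41 and 24.5 CPM uninduced and 39.1 and 61.9 CPM induced. S34F cells held 9.42 CPM before induction and 37.4 and 44.3 CPM after it, and Q157R cells 8.74 CPM before and 31.1 and 46.1 CPM after it. The induced libraries of the 3 lines overlapped each other. The ratio of replicate 1 libraries was 4.66-fold in WT, 3.97-fold in S34F and 3.55-fold in Q157R, so that the S34F line was not the lowest here.

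Matrix proteins are encoded by LAMA5 and TNXB. LAMA5 (ENSG00000130702.15, chr20:62307955-62367312) stood at 7.59 and 6.75 CPM in uninduced WT cells and at 19.8 and 24.0 CPM in induced ones. It stood at 10.6 CPM before induction and 14.4 and 19.1 CPM after it in S34F cells, and at 5.57 CPM before and 12.3 and 16.9 CPM after it in Q157R cells. The uninduced S34F library was the highest of the 4 uninduced ones, and the ratio of replicate 1 libraries was 1.36-fold in S34F, 2.20-fold in Q157R and 2.61-fold in WT. ADRM1, on the opposite strand and overlapping LAMA5, held 1478 to 4410 counts per library. TNXB (ENSG00000168477.17, chr6:32041153-32115334) stood at 4.68 and 7.22 CPM uninduced and 14.7 and 23.1 CPM induced in WT cells. S34F cells held 5.44 CPM before and 7.09 and 11.5 CPM after induction, and Q157R cells 3.20 CPM before and 9.00 and 12.9 CPM after it. TNXB overlaps ATF6B on the same strand, which held 3402 to 7576 counts, so reads at their shared end are uncertain.

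The exchange factor genes were alike in their replicate pattern, which CD24, ICAM1, P2RX1 and TNXB shared. MCF2L (ENSG00000126217.20, chr13:112894378-113099739) stood at 7.21 and 12.6 CPM uninduced and 18.0 and 26.8 CPM induced in WT cells. It stood at 9.07 CPM before induction and 12.2 and 19.2 CPM after it in S34F cells, and at 2.99 CPM before and 13.7 and 25.5 CPM after it in Q157R cells. DOCK6 (ENSG00000130158.13, chr19:11199295-11262481) stood at 7.89 and 17.3 CPM uninduced and 20.2 and 46.2 CPM induced in WT cells, where the nearest libraries of the groups were 1.17-fold apart. S34F cells held 8.56 CPM before and 14.5 and 19.8 CPM after induction, and Q157R cells 4.66 CPM before and 18.9 and 38.4 CPM after it. For both genes the uninduced Q157R library was the lowest of the 10, as it was for CD24, ICAM1, LAMA5 and TNXB. Every Q157R ratio has this single library as its denominator.

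ZNF467 (ENSG00000181444.12, chr7:149764182-149773479) stood at 5.32 and 3.56 CPM uninduced and 17.9 and 8.06 CPM induced in WT cells. S34F cells held 5.92 CPM before and 10.0 and 9.76 CPM after induction, and Q157R cells 4.95 CPM before and 20.3 and 12.5 CPM after it. Unlike the other genes, its replicate 2 library was the lower one in 4 of 4 groups of 2 libraries. Replicate 2 was the higher one in 4 of 4 groups for CD24, ICAM1, P2RX1, TNXB, MCF2L and DOCK6, by 1.18-fold to 3.58-fold, and in 3 of 4 for LAMA5. Per kilobase of exon, the 8 genes ranged from 0.129 CPM per kb for MCF2L in uninduced Q157R cells to 28.4 CPM per kb for CD24 in Q157R replicate 2.

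In each line, every induced library lay above every uninduced library for 8 of 8 genes. Of all 21300 genes tested, 17.8% did so in WT, 43.1% in S34F and 36.3% in Q157R, and 9.4% (2002 genes) in all 3 lines. Nothing is read from the 8 of 8, because the genes were picked on this contrast. Over the 8 genes the median ratio of replicate 1 libraries was 2.88-fold in WT (2.44-fold for ICAM1 to 7.65-fold for CD24), 1.69-fold in S34F (1.30-fold for TNXB to 3.97-fold for P2RX1) and 4.08-fold in Q157R (2.20-fold for LAMA5 to 24.6-fold for CD24). The S34F ratio was the lowest of the lines for 7 of 8 genes and the Q157R ratio the highest for 5. Because the genes were chosen for being higher in the WT or Q157R line, this order rests on the values that chose them, and nothing is read from it. The S34F and Q157R ratios each rest on 1 uninduced library, and the induced S34F libraries were also those with the highest share of reads outside annotated features, whose part in this order was not tested.

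**Figure D2:**
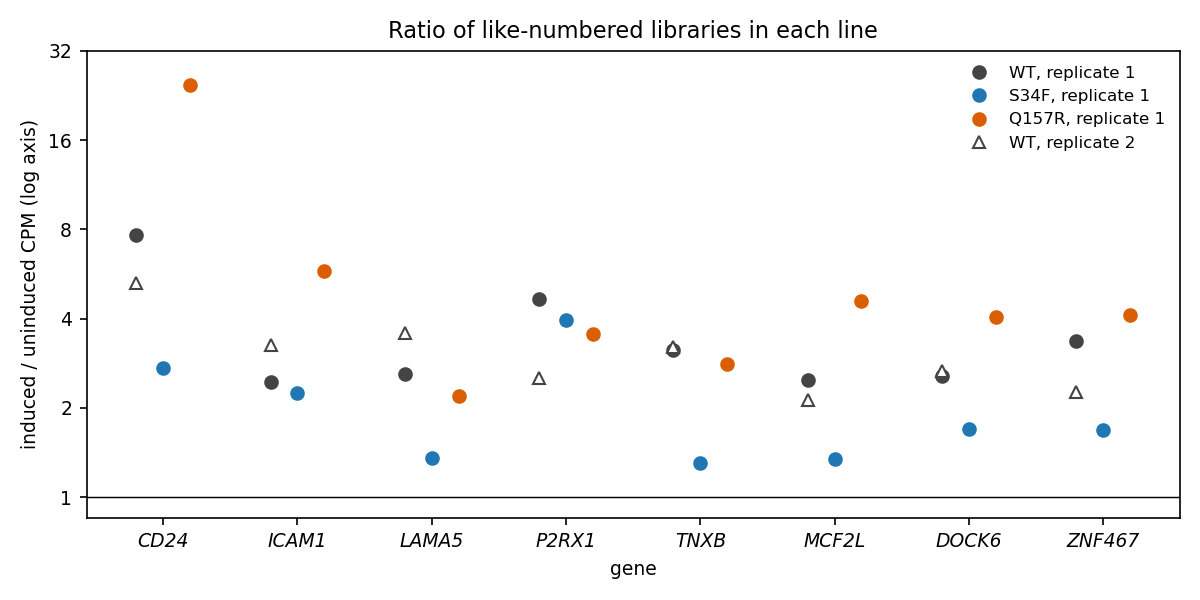
Ratio of induced to uninduced CPM between libraries of the same replicate number (log axis) for each gene, with 1 symbol per line and pair. S34F ratios lie lowest for every gene but P2RX1, and the largest ratio is 24.6-fold for CD24 in Q157R.

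The ranks of the genes in the blocked fit are likewise a description, since WT and Q157R were the lines that chose them. Among the 13189 genes they were 2 to 106 in WT, 1 to 267 in Q157R and 194 to 2686 in S34F. In the S34F line MCF2L ranked 2686, TNXB 2503, LAMA5 2073 and DOCK6 2041, with log2 fold changes of 0.39 ± 0.23, 0.42 ± 0.25, 0.52 ± 0.25 and 0.53 ± 0.26 (SE). These 4 lay inside the bulk of that line's wide distribution, and P2RX1 at 1.76 ± 0.35 and CD24 lay farther out.

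**Figure D3:**
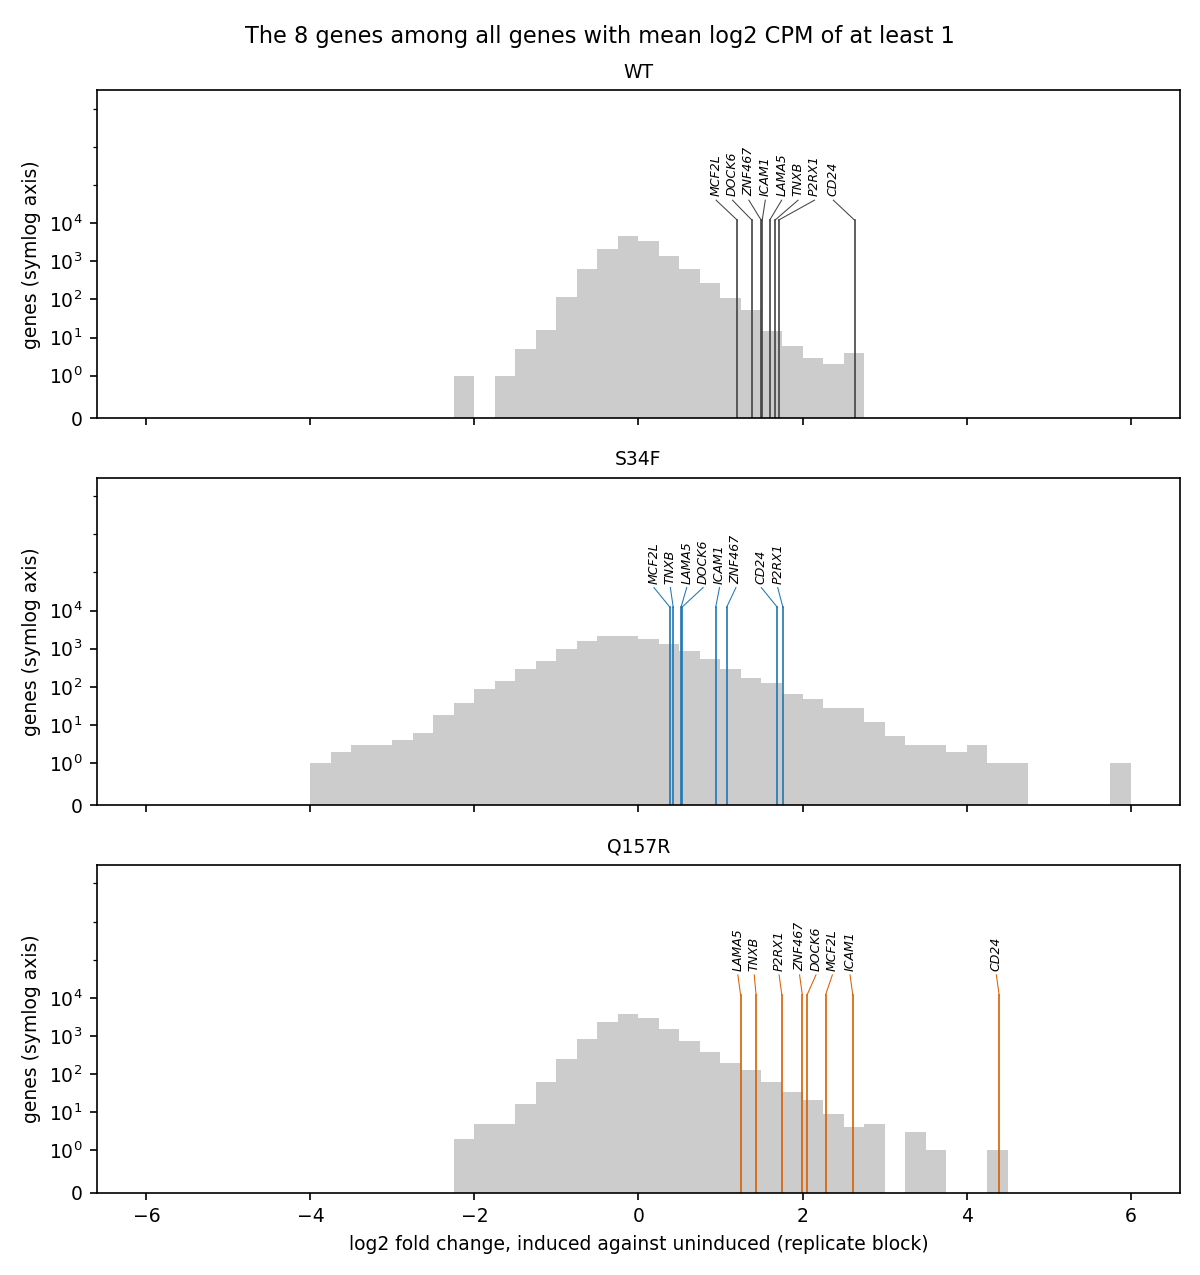
Number of genes (symlog axis, in bins of log2 fold change) against the log2 fold change of induced against uninduced cells with the replicate block, for the 13189 genes with a mean log2 CPM of 1 or more; vertical lines mark the 8 genes. In WT and Q157R the lines fall in the right tail, and in S34F MCF2L, TNXB, LAMA5 and DOCK6 fall in the bulk, at 0.39 to 0.53.

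Across the 10 libraries the log2 CPM of the 8 genes correlated pairwise at a median r of 0.885 (0.492 to 0.971 over 28 pairs), a description of libraries that share the induction contrast on which the genes were chosen. ZNF467 correlated at 0.618 with the mean of the other genes, against 0.878 to 0.945 for the rest. The genes outside the set with the most similar profile were STX4 (r = 0.954), SLC16A5 (0.949), MVP (0.945), RINL (0.945), EFCAB13 (0.944) and ADCY6 (0.944). STX4, a membrane fusion protein, stood at 15.5 CPM in uninduced and 22.02 CPM in induced WT cells, 15.998 and 20.9 CPM in S34F, and 14.8 and 22.3 CPM in Q157R (group means). ADCY6, an adenylyl cyclase, stood at 115 and 160 CPM in WT, 122 and 164 CPM in S34F, and 86.9 and 181 CPM in Q157R. Their ratios were smaller than those of CD24 and ICAM1 in each line. The 68 genes tested within 100 kb of the 8 had a median log2 fold change of 0.06 in WT, 0.01 in S34F and 0.02 in Q157R. With the block 0 neighbours were called in WT and Q157R, and 5 rose and 11 fell in S34F (7.35% and 16.2%, against 8.23% of all genes called higher and 11% lower in that fit). Without the block 1 rose and 3 fell there.

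Genes of the same pathways were then tested in the induction contrasts, with the 8 genes left out. Of 197 list genes tested, edgeR called 0 in WT (15 at an unadjusted p under 0.05; DESeq2 called 1), 2 higher and 0 lower in S34F, and 0 in Q157R (31 at an unadjusted p under 0.05; DESeq2 called 3). Over all 21300 genes, edgeR called 0 in WT and Q157R, and 0.704% higher and 1.26% lower in S34F. With the replicate block, 2 list genes rose and 0 fell in WT (1.02%, against 0.254% of all genes called higher and 0.164% called lower), 0 were called in Q157R (0.146% of all genes called higher and 0.117% lower, 61 list genes at an unadjusted p under 0.05), and 10 rose and 31 fell in S34F. Those S34F counts are 5.08% and 15.7% of the list genes, against 8.23% and 11% of all genes.

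Partners of ICAM1, selectins and CD24 held calls in WT and S34F cells, as did, through ITGAM alone in WT, the monocyte and granulocyte markers. ITGAM, the CD11b chain of an integrin that binds ICAM1, rose 6.54-fold in S34F cells, from 5.38 CPM to 35.2 ± 7.80 CPM (SD, n = 2; edgeR adjusted p = 0.034), and is also the 1 monocyte marker called there. With the block ITGAM rose in WT cells too, 2.02-fold, from 6.15 ± 1.18 to 12.5 ± 3.09 CPM (SD, n = 2 each; edgeR adjusted p = 0.0416). ITGAL, the CD11a chain of the other main ICAM1 receptor, rose with the block in WT cells 4.12-fold, from 2.29 ± 0.0302 to 10.2 ± 6.76 CPM (edgeR adjusted p = 0.0336). ICAM2 rose 1.90-fold and EZR, which links membrane proteins to actin, fell 2.55-fold in S34F cells with the block, where 3 of 18 list genes rose and 3 fell. In Q157R cells edgeR called no gene of this list with or without the block, and DESeq2 called 1. The list's median log2 fold change there was 0.77 without the block and 0.42 with it, against 0.05 and 0.02 for all genes.

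Of 21 NF-kB pathway genes and targets, 0 were called without the block in the 3 lines by edgeR, and DESeq2 called 2 in Q157R. With it BIRC3, an inhibitor of apoptosis, rose 2.35-fold (edgeR adjusted p = 0.0441) and BCL3 fell 2.03-fold (edgeR adjusted p = 0.00901) in S34F cells. The list's median log2 fold change was 0.18 in WT, -0.25 in S34F and 0.56 in Q157R without the block, and 0.19, -0.30 and 0.23 with it. Of 15 laminin chains, basement membrane genes and laminin receptors, 3 fell in S34F cells with the block, among them LAMC1, the gamma chain that pairs with LAMA5, 2.36-fold from 278 CPM to 103 ± 8.95 CPM (SD, n = 2; edgeR adjusted p = 0.00239). LAMB1 fell 1.57-fold there, and NID1 fell by 2.58 on the log2 scale from 0.715 CPM. Of 9 tenascins and interstitial matrix genes, SPARC rose 1.56-fold and TNC, another tenascin, fell 3.30-fold in S34F cells with the block. Of 10 purinergic receptors and ectonucleotidases 0 were called with or without the block; the ADP receptor gene P2RY1 stood at 136 ± 17.1 CPM in uninduced and 137 ± 28.7 CPM in induced WT cells (SD, n = 2 each).

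Without the block, the cell type and stress lists held 2 calls over the 3 lines, ITGAM and the lymphoid gene KLRD1 in S34F cells; KLRD1 rose from 0.143 CPM to 9.09 ± 2.92 CPM (SD, n = 2; edgeR adjusted p = 0.034). With the block 7 of 21 megakaryocyte and platelet markers fell in S34F cells, among them RAB27B 2.46-fold, PPBP 2.49-fold and PLEK 1.83-fold. In the same fit 8.23% of all genes were called higher and 11% lower, and the counts of each list below stand against these shares. Of 26 erythroid markers, 1 rose (EPOR, the erythropoietin receptor, 2.74-fold) and 3 fell (HBB 5.26-fold and CA1 2.15-fold among them). Of 8 monocyte and granulocyte markers 2 rose, ITGAM and LYZ (2.26-fold), and CSF1R fell 2.72-fold. Compared without the block, CSF1R stood at 2.09 CPM before and 1.75 ± 1.19 CPM after induction, PPBP at 43.7 and 27.5 ± 11.8 CPM, and HBB at 14.97 and 5.71 ± 4.06 CPM (SD, n = 2), and none of these 3 was called by edgeR. Of 7 lymphoid markers 2 rose, KLRD1 and CD79B (2.57-fold). Of 20 integrated stress response genes 7 fell with the block, among them PSAT1 3.61-fold and PHGDH 2.39-fold, both of serine synthesis, and SHMT2 1.79-fold. Without the block 0 of the 20 were called in S34F cells by edgeR or DESeq2, and the list's median log2 fold change was 0.02, against -0.85 with it. The group means of PHGDH were 124 CPM before and 121 ± 88.2 CPM after induction, and those of PSAT1 73.9 and 56.2 ± 51.6 CPM (SD, n = 2). Of 7 stromal, epithelial and endothelial markers and 13 mitochondrially encoded mRNAs, 0 were called in the 3 lines by edgeR with or without the block. PECAM1 stood at 303 ± 29.7 and 351 ± 64.5 CPM, and MT-CO1 at 6052 ± 1661 and 5752 ± 781 CPM, in uninduced and induced WT cells (SD, n = 2 each).

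The CLIP libraries are separate from those that chose the genes. In eCLIP and freCLIP, RNA crosslinked to a protein is sequenced after its precipitation; freCLIP separates complexes by size, here 37 to 65 kD (light) and 65 to 110 kD (heavy). All were from induced cells, so they do not bear on induction itself. The 7 eCLIP libraries, from WT cells, held 306711 to 1148212 gene counts and the 17 freCLIP libraries 38415 to 730996. Gene counts were 1.22% to 1.89% of eCLIP reads and 0.856% to 1.91% of freCLIP reads. Reads outside annotated features, 28.15% to 64.73% of each CLIP library, are not among them, so crosslinks there are not seen here. Over all CLIP libraries the eCLIP and freCLIP counts were 721 and 639 for LAMA5 and 171 and 246 for ICAM1. CD24 had 9 and 11 counts and P2RX1 10 and 9, and their RNA stood at 11.3 and 12.7 CPM per kb of exon in induced WT cells. The 11 freCLIP counts of CD24 lay in 1 library. By ratio of eCLIP to RNA level, CD24 ranked at percentiles 42.9 (U2AF1) and 34.9 (U2AF2) of 11273 genes. P2RX1 ranked at 33.1 and 35.9, so neither gene was extreme. On the same ranking LAMA5 stood at 94.8 and 96.7, ICAM1 at 89.6 and 88.3, and the other genes at 63.8 to 78.4. Of the 8 genes, ICAM1, MCF2L and LAMA5 passed edgeR's filter on low counts in freCLIP, and DOCK6 and TNXB as well in eCLIP. The filter reads the level library by library, so DOCK6 with 108 freCLIP counts did not pass. MCF2L passed with 73, of which 43 lay in 1 heavy Q157R library, and no longer passed without light WT replicate 2.

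LAMA5, the gene with the most CLIP counts of the 8, has 14.291 kb of exon, and CLIP counts are not given per length here. On the opposite strand, LAMA5 is overlapped by ADRM1 and ICAM1 by AC011511.5. Whether reads of these neighbours are among the CLIP counts was not tested, as the strand setting is not given. In the light fraction it stood at 165, 179 and 63.6 CPM of gene counts in WT, 145, 103 and 187 in S34F, and 495 and 251 in Q157R libraries. Both Q157R libraries lay above the others, at 19 and 34 counts, and the difference from WT, 1.01 ± 0.76 on the log2 scale, was within the spread (edgeR adjusted p = 0.353). In the heavy fraction it stood at 103 to 144 in 4 WT libraries, 145, 157.5 and 256 in S34F and 28.3 and 140 in Q157R. The differences from WT were 0.50 ± 0.63 for S34F and -0.53 ± 0.74 for Q157R (edgeR adjusted p = 1 for both). In eCLIP LAMA5 summed to 275 counts for U2AF1 and 446 for U2AF2, a difference of -1.15 ± 0.57 (edgeR adjusted p = 0.763).

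ICAM1 was not detected in the light fraction of Q157R cells, and neither were CD24, P2RX1, MCF2L and DOCK6. A count of 0 was usual in that group. Its median ratio of CLIP to RNA level was 0 over 11270 genes with at least 5 CPM of RNA. ICAM1 held 0 counts in both of those libraries, of 38415 and 135596 gene counts, which allows up to 17.2 CPM over the group. WT light libraries held 0, 40 and 12 counts, 90.3 CPM when summed, which is 5.24-fold that limit (3 counts over the group). The first of them also held 0, and the error of the WT value is not part of this ratio. That ratio rests on few libraries. It was 2.76-fold without WT replicate 3 and 1.16-fold without Q157R replicate 3, against 4.08-fold to 6.07-fold without each of the other libraries. This check was added after seeing the data. S34F light libraries held 18, 2 and 7 counts. The Q157R difference was not called (edgeR unadjusted p = 0.00683, adjusted p = 0.0638), DESeq2 called it (adjusted p = 0.0483), and edgeR called it without WT replicate 2 (adjusted p = 0.0308; range over the alternatives 0.0308 to 0.391). Over all genes the median log2 difference of this contrast was -1.19. In the heavy fraction ICAM1 stood at 36.9 to 100.3 CPM in WT, 27.2, 50.8 and 103.9 in S34F, and 18.9 and 46.7 in Q157R, with overlapping groups.

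MCF2L counts were uneven between libraries. In the heavy fraction of Q157R cells it held 1 and 43 counts, 9.45 and 112 CPM, and in that of S34F cells 0 counts in 3 of 3 libraries, which allows up to 2.97 CPM over the group. WT heavy libraries held 1, 1, 5 and 3 counts. Neither difference from WT was called (edgeR adjusted p = 1 for both). Of the 5 CLIP comparisons, edgeR called 0 of the tested genes in each: 3 genes in each freCLIP comparison and 5 in eCLIP. ICAM1 in the light Q157R comparison was the 1 with an unadjusted p under 0.05, and the 1 that DESeq2 called. Among all genes edgeR called 0.337% in the light and 0.132% in the heavy fraction for S34F, 7.6% in the light and 0% in the heavy fraction for Q157R, and 0% in eCLIP of U2AF1 against U2AF2 (149 and 601 genes at an unadjusted p under 0.05 in the last 2, where DESeq2 called 1 and 30). Counts were taken as deposited, with no correction for duplicate reads made here, so limits cover counting error only.

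**Figure D4:**
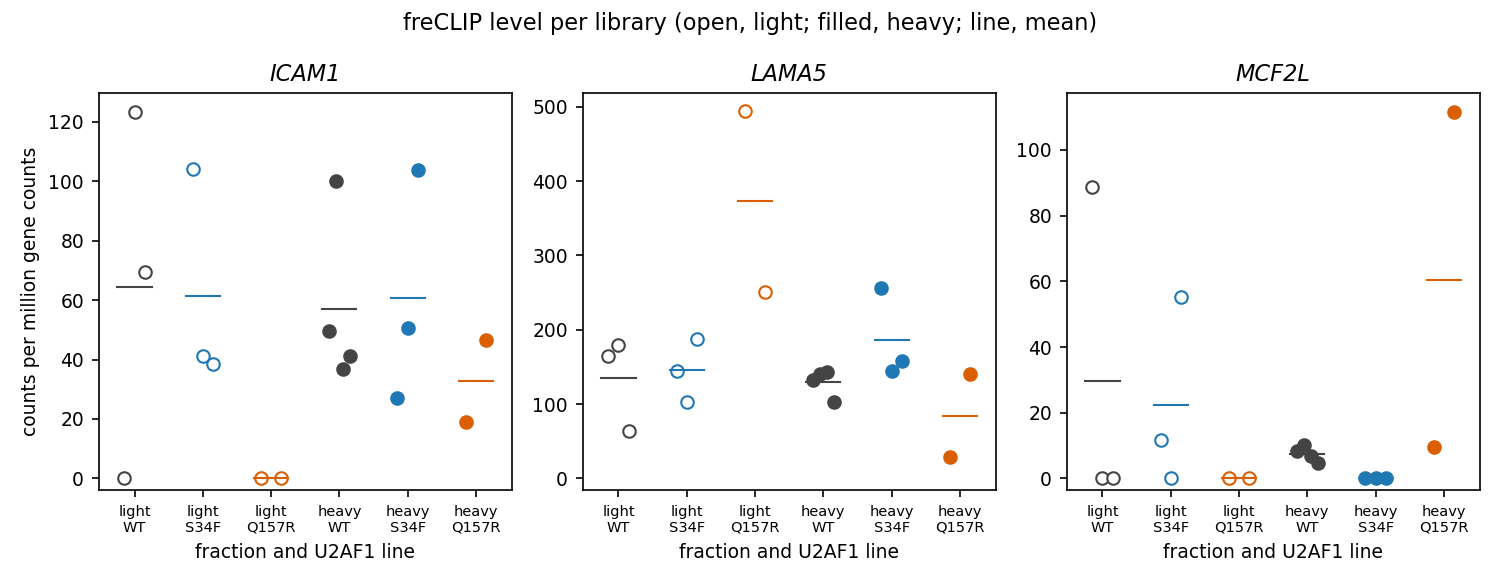
freCLIP level of ICAM1, LAMA5 and MCF2L (CPM of gene counts) in each of the 17 libraries, by fraction (open, light; filled, heavy) and U2AF1 line; bars are group means. ICAM1 lies at 0 in both light Q157R libraries and MCF2L at 0 in all 3 heavy S34F libraries, and most groups overlap.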

How the data were processed

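The authors deposited raw read counts per annotated gene, whole numbers with no normalization. Build GRCh38.p10 and the tools STAR (2.5.3a, 2.7.0f), HTSeq, HISAT2, cutadapt and SAMtools are listed in the submitters' processing notes, with no role for each; annotation release and strand setting are not given in the sources used here. Lines that name no gene (43.9% to 56.4% of RNA-seq reads, over 98% in CLIP) were left out. Of 58347 entries 58084 matched GENCODE 29.

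The members and the 13 lists were chosen with earlier results of these data known. The result of 1 list on its own is not reported here. Genes were tested with edgeR 4.0.16 under R 4.3.3 (scaled by TMM, filterByExpr with minimum count 10, robust quasi-likelihood F test, 1 mean per group over all libraries of an assay, Benjamini-Hochberg over all genes tested, threshold 0.05), checked on simulated data. SE is the log2 fold change divided by the root of F. Technical eCLIP replicates were summed. Not analysed here were 9 TimeLapse-seq samples.

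RNA levels are CPM with library sizes and TMM factors from the filtered genes, as in the fits. They were first computed with factors over all genes; the scaling was changed after both sets of values, and levels from an earlier analysis of these data, had been seen, and the first scaling is kept as an alternative.

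Like-numbered RNA-seq libraries deviated together (r = 0.211 to 0.653 in 12 of 12 pairs), so blocked values stand beside results they change. In groups of 2 libraries the deviations mirror each other, so each r occurs for 2 pairs and the 12 are not independent. Named list genes are up to 3 called with the lowest adjusted p per list and contrast, with and without the block, or the 2 most abundant of a list with none. Most similar genes are the 6 of highest correlation with the members' mean z-score at mean log2 CPM of at least 1. Alternatives were the block, DESeq2 1.42.0, RLE scaling, no filter, only the compared groups, only biological eCLIP libraries, and leaving out each replicate. Replicate 1 libraries only, the all-gene scaling and the ICAM1 light-fraction ratio without each library were added after seeing the data.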

Additional observations from a re-analysis of the deposited data

Results flagged for a closer look

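DOCK6 in the heavy freCLIP fraction of WT cells stood at 10.03 CPM in replicate 2, below the other 3 libraries at 24.8, 26.0 and 27.0, a gap that passes Dixon's limit for 4 samples. The value rests on 1 count in a library of 99734 gene counts. It was 1 of 6 such groups examined, and chance alone passes this limit in about 1 of 20 groups.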

How the results depend on the processing

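The 24 log2 fold changes of the 8 genes (3 lines each) stayed above 0 in all 208 values from 14 alternative settings. Of these, 197 moved by less than the spread between replicates and 11 by more. The settings reuse the libraries that chose the genes, so nothing is read from the kept direction or from the lack of overlap below. Levels scaled by TMM factors over all genes, the scaling first used, gave median replicate 1 ratios of 2.94-fold, 1.62-fold and 4.09-fold in WT, S34F and Q157R, and 18.3%, 40.6% and 35.6% of genes (9.23% in all 3 lines) without overlap; 8 of 8 genes did not overlap under either scaling, and the 6 most similar genes were shared.

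List genes called in WT numbered 2 with the replicate block, 1 with DESeq2 and 3 with no filter on low counts. In S34F they numbered 41 with the replicate block, 15 with DESeq2, 31 with no filter and 36 with only the compared groups, against 2. In Q157R they numbered 3 with DESeq2 and 26 with no filter. Without S34F_induced replicate 1 or replicate 2, 0 were called (0 to 0 over the libraries left out); that sets 1 induced against 1 uninduced library. Singly, the induced libraries lay 5.52-fold and 7.57-fold above the uninduced one for ITGAM, and 78.0-fold and 49.1-fold above its 5 counts for KLRD1.

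In CLIP, DESeq2 and the fit without WT light replicate 2 each called 1 gene, ICAM1, for Q157R (0 to 1 over the libraries left out; log2 -4.76 with DESeq2, -7.72 to -6.20 over those left out). eCLIP calls ran from 0 to 2: without U2AF1 replicate 1 LAMA5 (-2.55, edgeR adjusted p = 4.27e-14) and DOCK6 (1.45, 0.0191), and without U2AF1 replicate 2 LAMA5 (-0.63, 5.86e-04) and MCF2L (-2.40, 0.00882); the lone remaining library was assumed to vary like the other group. Directions that turned were of differences not called. In the light S34F comparison LAMA5 was at -0.17 and MCF2L at -0.12 with the replicate block, and MCF2L at -0.045 with DESeq2; over the libraries left out ICAM1 ran from -0.92 to 0.77, LAMA5 from -0.21 to 0.59 and MCF2L from -1.47 to 0.60. In the heavy fraction ICAM1 for S34F was at -0.10 with the replicate block and ran from -0.61 to 0.53, and LAMA5 for Q157R from -2.29 to 0.10. In eCLIP ICAM1 ran from -0.53 to 0.20, TNXB from -0.50 to 0.54, DOCK6 from -0.20 to 1.45, MCF2L from -2.40 to -0.03 and LAMA5 from -2.55 to -0.63. The cause was not tested. Like-numbered CLIP libraries deviated together only weakly, with freCLIP r = 0.002 to 0.145 and 6 of 34 pairs over 0.1. In eCLIP r was 0.076 in 2 pairs that mirror each other, so they are not independent. Both fell short of every pair over 0.1, so CLIP libraries were not treated as paired. The block gave 0 called members in the 5 CLIP comparisons. Low CLIP counts limit what could be detected.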
